A study of Mus musculus with 37 samples.

Results

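The cytosolic ribosomal protein genes are the mouse genes for the proteins of the ribosome that works in the cytoplasm. They were taken from the count table by symbol, as Rpl or Rps with a number and at most 1 further letter, together with Rplp0, Rplp1, Rplp2 and Rpsa and without Rps27l. This gave 80 genes of the 24421 in the table, 49 of the large subunit and 31 of the small subunit. All 80 symbols matched a transcript of GENCODE M21 on GRCm38 (mm10).

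A ribosome joins a small subunit, which reads the mRNA, to a large subunit, which links the amino acids. The large subunit carries a flexible stalk, built from the base protein Rplp0 (P0) and the acidic proteins Rplp1 (P1) and Rplp2 (P2), which recruits the factors that drive elongation. The mRNAs of these genes are short, abundant and known for a run of pyrimidines at their start, the terminal oligopyrimidine (TOP) motif, through which the growth kinase mTOR controls their translation. Several family members have close copies in the genome, and a few have paralogs made mainly in certain tissues, such as Rpl3l in skeletal and heart muscle.

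Lung RNA was sequenced from 37 C57BL/6 mice, 1 library a mouse, 15 labelled female and 22 male. Of the irradiated mice without a drug, 7 received a 5-ion simulation of galactic cosmic radiation (GCR; 4 female, 3 male), 7 received 300 MeV per nucleon silicon ions (silicon; 4 and 3) and 5 received gamma rays from 137-Cs (gamma; 2 and 3), each at 0.75 Gy. Drinking water with 12 mM nicotinamide riboside (NR), a precursor of the coenzyme NAD, was given from before exposure to 6 mice that received silicon ions at 0.75 Gy (silicon + NR; 2 and 4) and to 5 mock-irradiated mice (mock + NR; 1 and 4). The reference was 7 mock-irradiated mice at 0 Gy without NR (mock; 2 and 5). The sources used here give neither the age of the mice nor the time from exposure to dissection.

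Libraries held 9485197 to 66381526 counts in genes. The ribosomal RNA precursor Rn45s exceeded 100000 counts per 1000000 (CPM) in GCR replicates 2, 5 and 6 and in mock replicate 4. Acta1, the skeletal muscle actin, exceeded 1000 CPM in 13 libraries, 5 of them silicon, 2 silicon + NR, 2 mock + NR and 4 mock. Ccl19, made by lymphoid stroma, exceeded 100 CPM in silicon replicates 3 and 6 and mock + NR replicate 4. GCR replicates 1, 6, 2 and 5 had the fewest genes with a count of all 37 libraries (16168, 16452, 17074 and 17384). In bulk lung, fewer cells of a type and less RNA per cell cannot be told apart, and no source used here states whether the GCR mice were handled together with the mock mice, so handling and exposure cannot be told apart. Mice of a group are taken as separate animals. The p-values rest on a spread between mice estimated jointly over all 6 groups and 37 libraries, not over the compared groups alone.

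Of the 6 members with the largest rise in GCR against mock, the 5 with a promoter entry are shown with the first bases of their RefSeq transcripts (GRCm38.p6). Beside them stand Rpl4 (1257 coding bases) and Rpl15 (612 coding bases), which did not pass that test, and the muscle paralog. Each line runs from 10 bases before the annotated start to 20 bases from it onwards, and capitals mark the longest run of C and T of at least 6 bases in that window.
Rps21 (small subunit, chr2:180257369-180257398, + strand): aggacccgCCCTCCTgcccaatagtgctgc
Rps12 (small subunit, chr10:23787190-23787219, - strand): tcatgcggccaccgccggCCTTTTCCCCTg
Rpl38 (large subunit, chr11:114668570-114668599, + strand): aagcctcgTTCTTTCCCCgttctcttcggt
Rps15a (small subunit, chr7:118116128-118116157, - strand): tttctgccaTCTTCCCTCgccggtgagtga
Rplp2 (stalk, chr7:141447641-141447670, + strand): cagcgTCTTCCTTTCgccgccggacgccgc
Rpl4 (large subunit, chr9:64173377-64173406, + strand): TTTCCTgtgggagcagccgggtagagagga
Rpl15 (large subunit, chr14:18270967-18270996, - strand): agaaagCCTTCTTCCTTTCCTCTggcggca
Rpl3l (muscle paralog, chr17:24727816-24727845, + strand): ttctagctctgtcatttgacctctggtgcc
The first 7 windows hold such a run, and the window of Rpl3l holds none of that length. The longest run was 17 bases in Rpl15 and 7 bases in Rps21. The windows were picked by fold change, and a relation between run length and fold change over the members was not tested. RefSeq and the GENCODE transcript used here place the start from 2 bases (Rps21) to 891 bases (Rps15a) apart, so the windows follow RefSeq alone.

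Of the 80 members, 59 had an entry in the RefSeq promoter table. A run of at least 6 pyrimidines on the gene's strand lay in the window around the start of 55.9% of them, against 28.7% of all 32851 entries. In the 300 bases from 250 before the start to 50 after it, searched on both strands, CCGGAAG, the core recognised by ETS factors such as GABP, was found in 37.3% of members and 8.86% of all entries. AAGATGG, the core of the YY1 motif, was found in 13.6% and 6.34%. CTTTCC was found in 52.5% and 26.6%, and CTCTTT in 45.8% and 23%. These are matches of letters, and no binding was measured.

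In the absence of radiation and NR the family was abundant and uneven. The 80 genes summed to a median of 15340 CPM in mock lungs (13071 to 20986). Divided by coding length, the median member above 10 CPM in some library stood at 383 CPM per 1000 coding bases in mock. Rpl41, whose product is the smallest ribosomal protein, had the highest level at 5294 CPM per 1000 coding bases (4130 to 6711 over the 7 mock lungs). Rps29 (1560) and Rpl37a (1260) followed. The divisor leaves out untranslated bases, and Rpl41 has 75 coding bases in a transcript of 544 (Rps29 168 of 390, Rpl37a 276 of 558). These ranks thus hold for division by coding length alone. Rpl10a (110) and Rpl6 (152) were the lowest of the general members. At the lower end of the family stood 6 members with under 10 CPM in every library, Rpl10l, Rpl26, Rpl30, Rpl34, Rpl39l and Rps27. Rpl10l, a testis paralog of Rpl10, had no count in any of the 37 libraries, and Rpl26 had no count in 34 of them. Rpl30 held 2 to 40 counts a library. Near-identical copies of several of these genes exist in the genome, and no source used here states how reads that match several genes were counted, so their low counts are uncertain as levels.

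Among themselves the members kept nearly fixed proportions in the libraries outside the GCR group that were below 100000 CPM Rn45s. Over the 29 libraries that were neither GCR nor above 100000 CPM Rn45s, the SD of a member's log2 share of the summed counts had a median of 0.12, and it was under 0.2 for 68 of the 74 members that passed 10 CPM in some library. Rpl6 was the steadiest, at 0.836% to 0.999% of the summed counts. The exceptions were Rpl3l (SD 3.07), Rps4l (0.51), Rps2 (0.28), Rps21 (0.28), Rps12 (0.23) and Rpl3 (0.21). Rps21 and Rps12 are thus among the members that varied most in these libraries and also among those with the largest rise in GCR. Mock replicate 4, left out here for its Rn45s, lay outside these ranges for some members. It had Rps12 at 1.76% (0.781% to 1.52% in the 29 libraries) and Rpl28 at 1.10% (0.485% to 0.797%).

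The summed level was high and widely spread in GCR lungs. It was 30444, 22498, 16475, 13558, 26196, 40654 and 15245 CPM in GCR replicates 1 to 7, against 15340, 17795, 17442, 20986, 13983, 13745 and 13071 CPM in mock replicates 1 to 7. GCR replicates 1, 2, 5 and 6 lay above every mock library, and GCR replicates 3, 4 and 7 lay within the mock range. The means were 23582 ± 9722 CPM in GCR and 16052 ± 2838 CPM in mock (SD, n = 7 each). Silicon lungs had 14000 to 25979 CPM, gamma lungs 11825 to 16239, silicon + NR lungs 12542 to 18805 and mock + NR lungs 12217 to 20065. The highest silicon library was replicate 3 and the highest mock + NR library was replicate 4, both over 100 CPM of Ccl19. Without the libraries over 100000 CPM Rn45s, the median sum was 15860 CPM in 4 GCR lungs and 14662 CPM in 6 mock lungs.

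**Figure D1:**
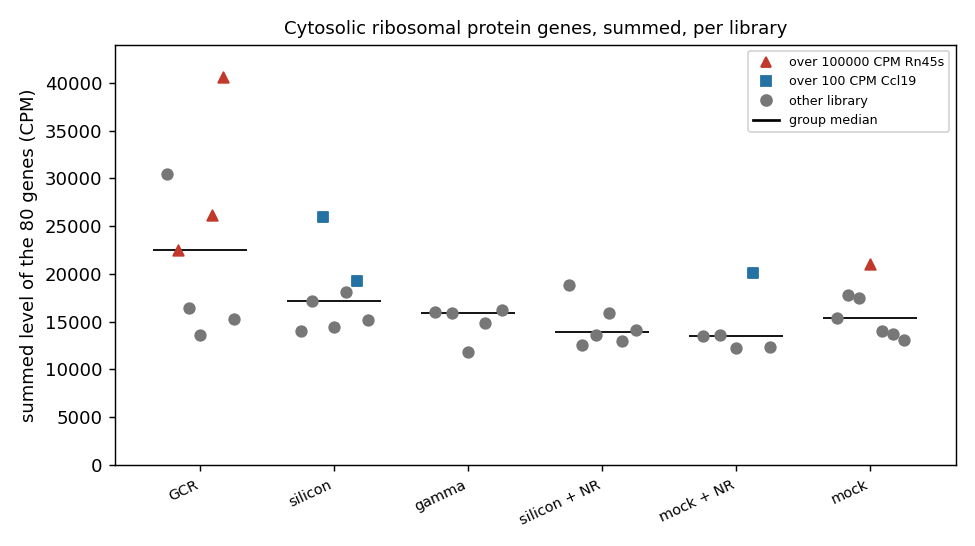
Summed level of the 80 cytosolic ribosomal protein genes in CPM (vertical axis) in each library, by group, with the group median as a line. GCR replicates 1, 2, 5 and 6 (22498 to 40654 CPM) stand above the 7 mock libraries (13071 to 20986), while GCR replicates 3, 4 and 7 do not. Triangles mark libraries over 100000 CPM Rn45s and squares those over 100 CPM Ccl19.

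The first comparison asked which genes differed in lung after the GCR simulation. In GCR against mock, 39 members rose and 1 fell of 78 tested, and Rpl10l and Rpl26 did not pass the filter on low counts. Of all 16977 genes tested, 16.6% passed, as 8.03% rose and 8.52% fell (edgeR's quasi-likelihood test, Benjamini-Hochberg adjusted p under 0.05). The median log2 fold change was 0.70 over the 78 members and -0.06 over all tested genes, and 72 of the 78 members had a positive value. Fold changes are on counts scaled by TMM with sex in the model, so they differ from ratios of the CPM values.

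The count changed with the libraries fitted. Without the 4 high-Rn45s libraries (GCR replicates 2, 5 and 6 and mock replicate 4) no member passed (median 0.45, 71 of 78 positive, smallest adjusted p = 0.219 in edgeR, 40 members at an unadjusted p under 0.05). Without GCR replicate 1 as well, an alternative chosen after the data were seen, no member passed, the median was 0.01 and 41 of 78 were positive. In both fits none of the tested genes passed, with 2748 and 1134 at an unadjusted p under 0.05. Without the muscle-rich libraries, 4 of them mock and none GCR, no member and no other gene passed, with a median of 0.84 (3235 genes and 55 members at an unadjusted p under 0.05). When the 14 GCR and mock libraries were fitted alone, 3 members rose and 1 fell, with a median of 0.78, where 5.78% of all genes passed, so the 4 of 78 were near the share over all genes. Leaving out single libraries gave 24 members called without GCR replicate 2, where 2.95% of all genes passed, to 58 without GCR replicate 4, where 24.1% passed.

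Of the stalk genes, Rplp1 and Rplp2 passed and Rplp0 did not, and the difference between these genes was not tested. Rplp1 and Rplp2 have 342 and 345 coding bases, and Rplp0 has 951. Rplp1 had 968, 1066, 478, 283, 1110, 2284 and 350 CPM in GCR replicates 1 to 7, against 299, 381, 369, 459, 259, 274 and 243 CPM in mock replicates 1 to 7. GCR replicates 1, 2, 3, 5 and 6 exceeded every mock library, and replicates 4 and 7 overlapped them. Its log2 fold change was 1.84 (SE 0.36, edgeR adjusted p = 0.00513), the smallest adjusted p in the family. Rplp2 had 476, 535, 346, 194, 613, 870 and 221 CPM in GCR replicates 1 to 7, against 185, 249, 270, 312, 215, 180 and 162 CPM in mock replicates 1 to 7. It rose by 1.36 (SE 0.29, edgeR adjusted p = 0.00709). Rplp0, the base of the same stalk, had 697, 547, 471, 461, 624, 806 and 461 CPM in GCR replicates 1 to 7, against 467, 481, 585, 357, 533, 543 and 396 CPM in mock replicates 1 to 7. GCR replicates 1, 5 and 6 exceeded every mock library, and the other GCR lungs overlapped them. The log2 fold change of Rplp0 was 0.54 (SE 0.20) and did not pass (edgeR adjusted p = 0.0613). The ratio of Rplp1 to Rplp0 was thus 0.614 to 2.83 in GCR lungs and 0.485 to 1.29 in mock lungs. The mock value of 1.29 belonged to replicate 4, the mock library with over 100000 CPM Rn45s, and the other 6 mock lungs did not exceed 0.793.

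**Figure D2:**
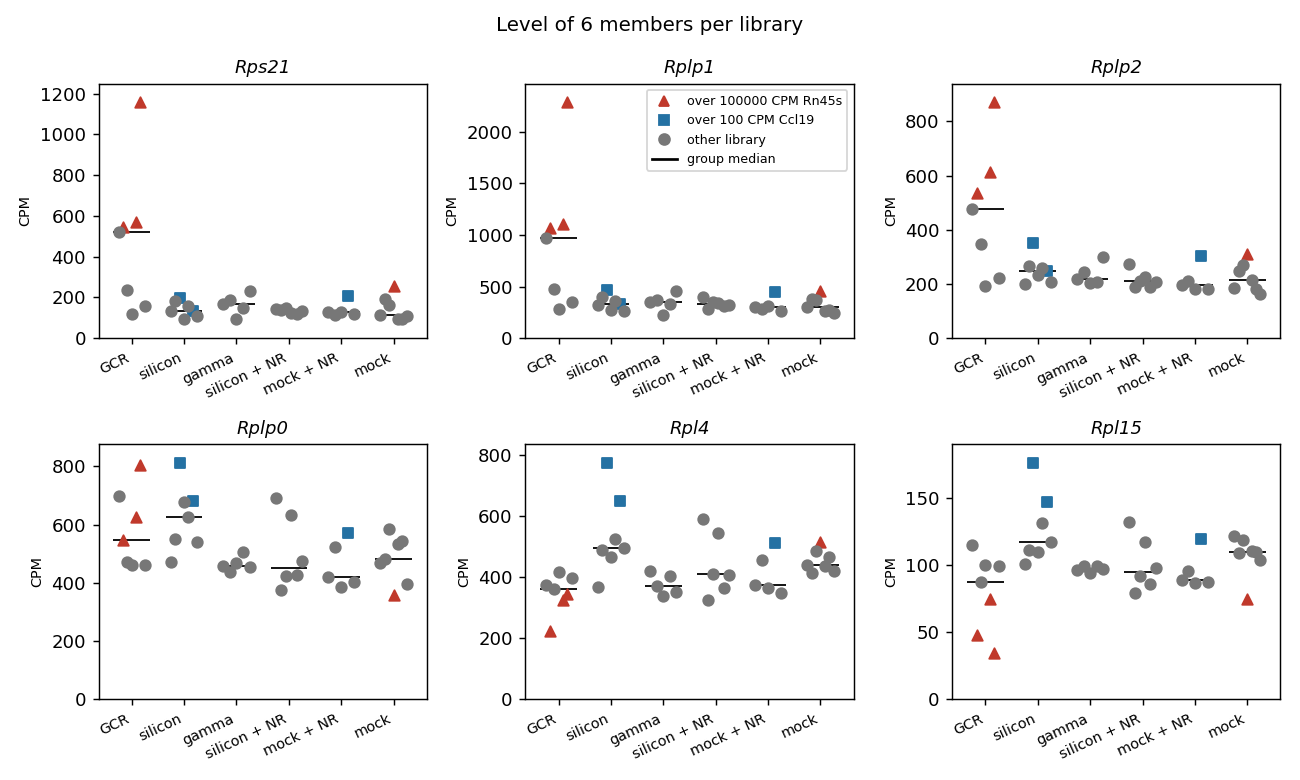
Level in CPM (vertical axes) of 6 members in each library, by group, with group medians as lines. Rps21, Rplp1 and Rplp2 are high in GCR replicates 1, 2, 5 and 6, and Rplp0 exceeds the mock range in GCR replicates 1, 5 and 6. Rpl4 and Rpl15 are at their lowest in GCR libraries with over 100000 CPM Rn45s.

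Of the 31 small subunit members 20 rose and none fell, with a median log2 fold change of 0.87. Rps21, a small protein of the solvent side of the subunit, had the largest rise of the family, at 2.03 (SE 0.40, edgeR adjusted p = 0.00569). It had 520, 543, 239, 117, 569, 1156 and 159 CPM in GCR replicates 1 to 7, against 112, 191, 162, 257, 96.3, 95.6 and 110 CPM in mock replicates 1 to 7. The highest mock value was again replicate 4, and GCR replicates 1, 2, 5 and 6 lay above it. Rps12 rose by 1.67 (SE 0.38) and Rps15a by 1.45 (SE 0.32). Rps26, known for contacts with mRNA at the exit channel, rose by 1.34 (SE 0.33), and Rps10, Rps28 and Rps24 by 1.34, 1.33 and 1.33. Rps24 and Rps26 are among the genes mutated in human Diamond-Blackfan anaemia, as is Rps19, which rose by 0.68 (SE 0.24, edgeR adjusted p = 0.0485).

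Rps14, which takes part in decoding and whose loss is known from the human 5q- syndrome, rose by 1.26 (SE 0.28), with 404 to 1844 CPM in GCR (median 900) and 379 to 562 CPM in mock (median 467). Rpsa, also known as the laminin receptor, rose by 1.18 (SE 0.29), with 311 to 1392 CPM in GCR (median 599) and 262 to 387 CPM in mock (median 347). Rps27a, made as a fusion with ubiquitin, rose by 0.94 (SE 0.22). Rps6, the substrate of the S6 kinases below mTOR, did not pass, with a value of 0.12 (SE 0.14, edgeR adjusted p = 0.562). It had 157, 110, 141, 151, 159, 94.3 and 161 CPM in GCR replicates 1 to 7, against 182, 164, 151, 121, 145, 129 and 152 CPM in mock replicates 1 to 7, so its 2 lowest values fell in the high-Rn45s GCR replicates 2 and 6. Rps3, which lines the mRNA entry channel, Rps2 and Rps18 did not pass either (0.21, 0.35 and 0.53).

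Of the 49 large subunit members 47 were tested, 19 rose and 1 fell, with a median of 0.63. Rpl38, known in mouse for its part in the translation of Hox mRNAs, had the largest rise outside the stalk, at 1.55 (SE 0.36, edgeR adjusted p = 0.00942). It had 114 to 771 CPM in GCR (median 401) and 104 to 306 CPM in mock (median 113). Rpl39, of the exit tunnel, rose by 1.20 (SE 0.35), Rpl41 by 1.14 (SE 0.26), Rpl13a, known for silencing of inflammatory mRNAs, by 0.99 (SE 0.29), Rpl22 by 0.82 (SE 0.26) and Rpl32 by 0.78 (SE 0.26). Rpl5 and Rpl11, which bind Mdm2 and stabilise p53 when ribosome assembly is disturbed, did not pass, at 0.46 (SE 0.19, edgeR adjusted p = 0.0798) and 0.47 (SE 0.21, edgeR adjusted p = 0.114). Rpl3, of the peptidyl transferase region, did not pass at 0.44 (SE 0.16), nor did Rpl10, which joins the subunit last, at 0.31 (SE 0.14).

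Rpl4 and Rpl15 had negative values that did not pass, -0.20 (SE 0.16) and -0.22 (SE 0.17). Rpl4, a long member with a loop in the exit tunnel, had 375, 224, 360, 417, 326, 343 and 398 CPM in GCR replicates 1 to 7, against 440, 415, 485, 515, 438, 465 and 419 CPM in mock replicates 1 to 7. Of the GCR libraries, replicate 4 alone reached the mock range. Rpl15 had 115, 48.0, 87.2, 100, 74.3, 34.2 and 98.9 CPM in GCR replicates 1 to 7, against 122, 109, 119, 74.7, 110, 110 and 104 CPM in mock replicates 1 to 7. Its 3 lowest GCR values were those of the high-Rn45s replicates 2, 5 and 6, and its lowest mock value was that of the high-Rn45s replicate 4. The ratio of Rplp1 to Rpl4 within a library ran from 0.680 to 6.66 in GCR and from 0.581 to 0.919 in mock.

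The difference between GCR and mock went with coding length. Over the 73 members with a coding length whose mean log2 CPM reached 3, the log2 fold change and the coding length had a Spearman correlation of -0.53 across genes, and -0.51 without Rpl3l. Over 10668 other genes it was 0.14. Comparisons without a called member also showed a relation over the 73 members. The correlation was 0.70 in silicon against mock, 0.62 in females against males and 0.57 in silicon + NR against mock + NR. It was 0.38 in mock + NR against mock and -0.42 for the silicon effect with NR minus that without. Gamma against mock and silicon + NR against silicon each had 0.04. These are descriptions, since the genes share the same libraries and are not independent replicates. Members with up to 300 coding bases had a median log2 fold change of 1.24 and rose in 7 of 8. Those above 300 and up to 450 bases had 0.79 (15 of 24 rose), those up to 600 bases 0.60 (8 of 19), those up to 900 bases 0.58 (9 of 18), and the 4 longer ones 0.12 (none rose and Rpl3l fell). Other genes in the same length classes had medians of 0.06, -0.02, -0.13, -0.14 and -0.03. Of these other genes 14.5%, 13.3%, 6.47%, 5.63% and 9.32% rose, in the same order of classes. Many of these genes carry small nucleolar RNAs, guides of ribosomal RNA modification, in their introns. Of the 29 members that host one, 12 rose and none fell (median 0.71), and of the 49 other tested members 27 rose and 1 fell (median 0.69). GC content of the transcript had a correlation of -0.06 with the members' fold change.

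**Figure D3:**
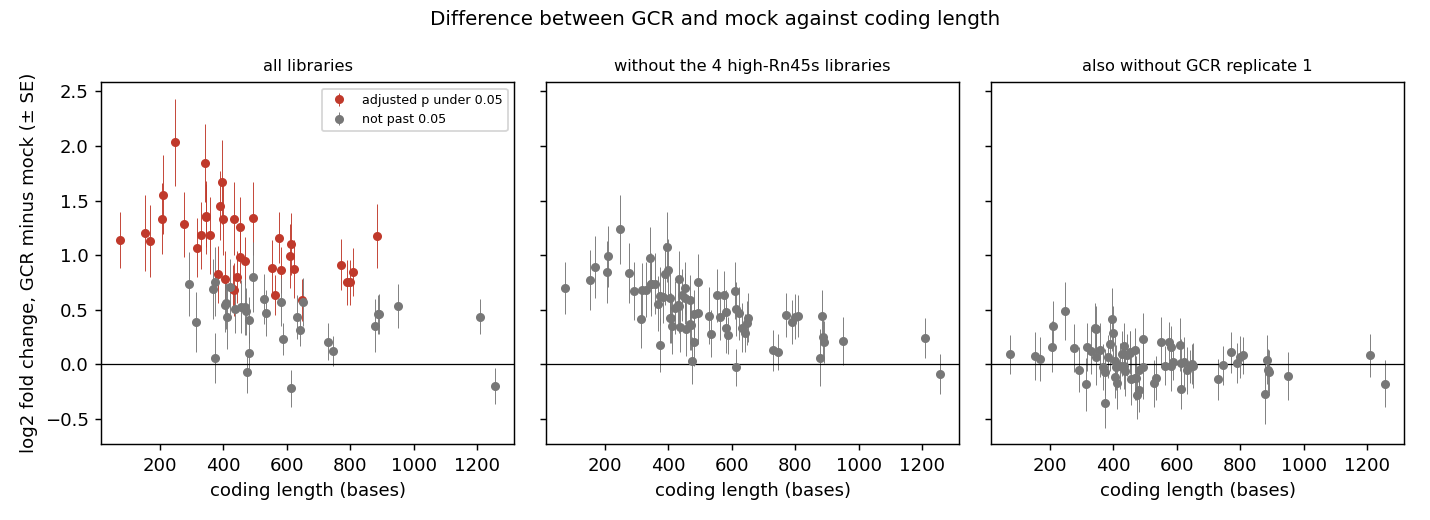
Log2 fold change of GCR over mock with its SE (vertical axes) against coding length in bases for 72 members, with all libraries (left), without the 4 high-Rn45s libraries (middle) and without GCR replicate 1 as well (right). Red points passed an adjusted p under 0.05, which occurs on the left alone, and the Spearman correlation with length is -0.51 on the left, -0.70 in the middle and -0.32 on the right.

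The relation to coding length differed between libraries. Over 72 members, the log2 CPM minus the mock median had Spearman correlations with coding length of -0.78, -0.52, -0.51 and -0.57 in GCR replicates 1, 2, 5 and 6, and of -0.28, 0.34 and -0.34 in GCR replicates 3, 4 and 7. In mock lungs it ran from -0.73 in replicate 4 to 0.48 in replicate 6. It was -0.53 in mock replicate 2 and -0.54 in gamma replicate 2, libraries with 22478 and 30274 CPM of Rn45s. GCR replicate 1 had 66 of 74 members above every mock library, replicate 6 had 61, replicate 5 had 41 and replicate 2 had 29. GCR replicate 3 had 6, and replicates 4 and 7 had none. Against the 6 mock lungs below 100000 CPM Rn45s, these counts were 69, 64, 59, 42, 19, 0 and 0 in the same order. Mock replicate 4 itself had 50 of 74 members above the other 6 mock lungs. The 4 GCR libraries with the highest sums were also those with the fewest detected genes, while silicon replicate 3, at 25979 CPM, had 18673 genes with a count. Depth differed as well. GCR replicate 1 had the GCR median of 26586200 total counts, and GCR replicates 2, 5 and 6 had fewer, down to 9485200. Silicon lungs had 26610700 to 31889600. The part of Rn45s, of depth and of detected genes in the result was not tested.

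**Figure D4:**
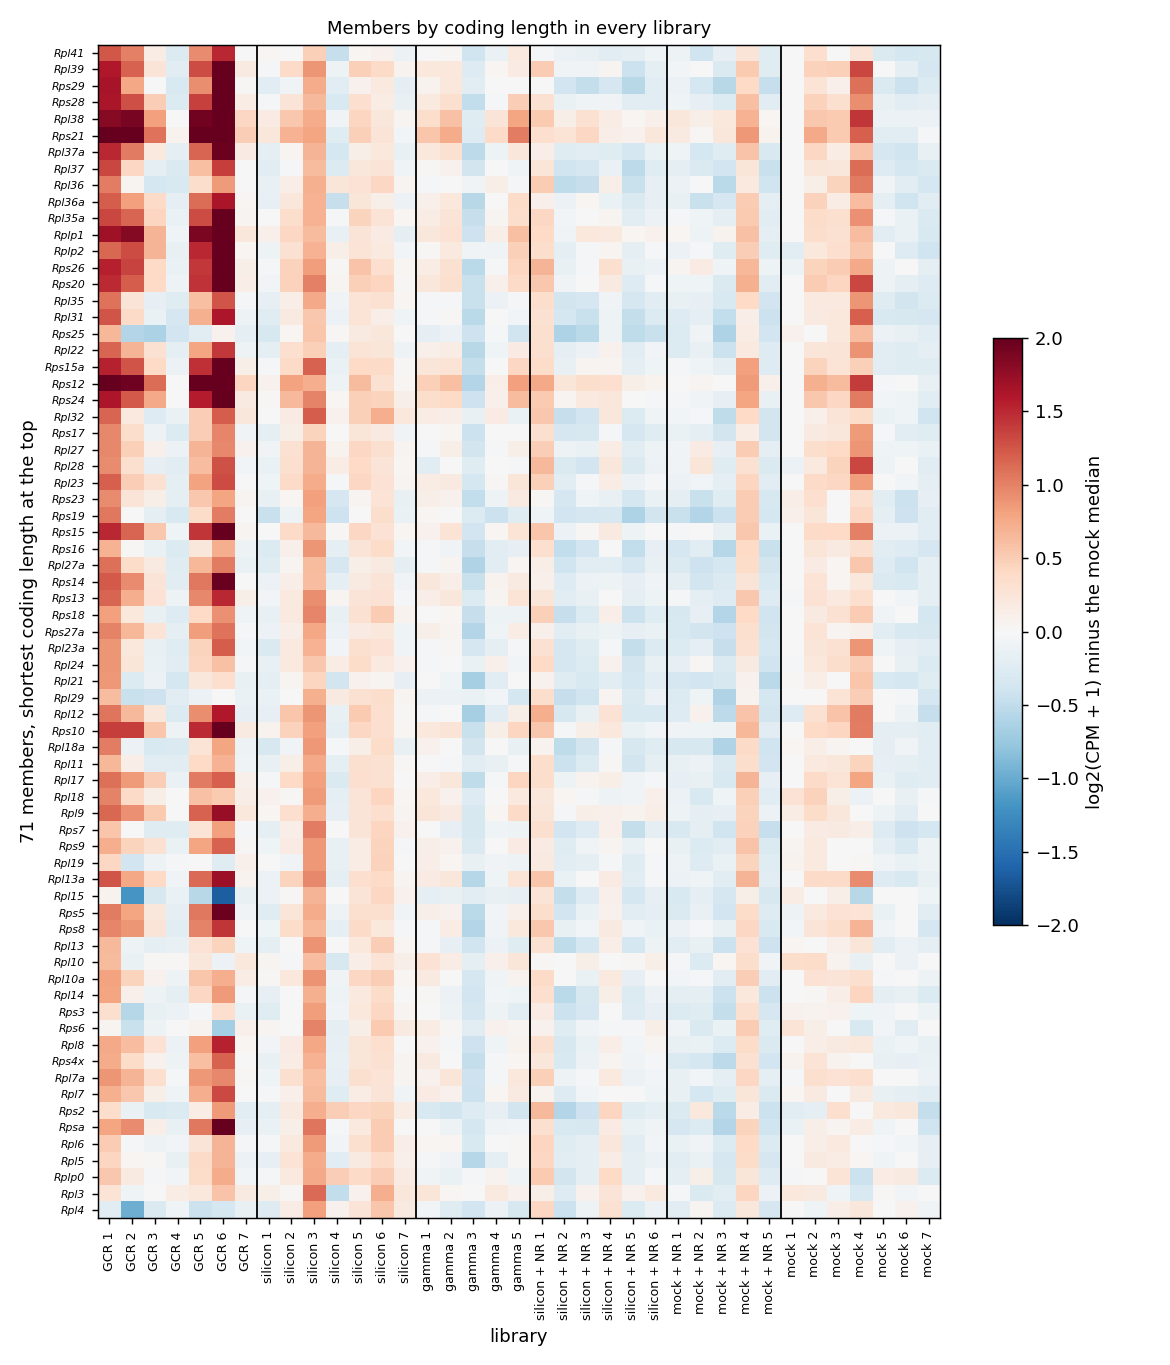
Log2(CPM + 1) minus the median of the 7 mock libraries (colour, cut at 2 in either direction) for 71 members (rows, shortest coding length at the top) in the 37 libraries (columns, by group). GCR replicates 1, 2, 5 and 6 and mock replicate 4 are highest toward the top, while silicon replicate 3 and mock + NR replicate 4 are high over the whole length range.

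Shares of the summed counts, which make no reference to the library total, gave a related but not identical ordering. Comparing medians of GCR and mock, 6 members had over 1.5 times the share (Rps21, Rps12, Rpl38, Rplp1, Rps24 and Rplp2). Rps21 took 1.71% in GCR and 0.840% in mock, and Rplp1 took 3.18% in GCR and 1.99% in mock. The share was lower by the same factor for 10 of the 74 members that passed 10 CPM in some library, among them Rpl3l, Rps4l, Rpl4, Rpl15, Rps25, Rps3, Rpl3, Rps6 and Rpl19. Rpl4 took 1.25% in GCR and 2.87% in mock. Without the high-Rn45s libraries 2 members (Rps21 and Rps12) were past the factor upward and 1 (Rpl3l) downward.

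Rpl3l, which replaces Rpl3 in muscle ribosomes, was the member that fell in GCR against mock, by 4.79 on the log2 scale (SE 1.45, edgeR adjusted p = 0.0263). Its level was 2.29, 0.229, 1.19, 2.21, 0.482, 0.843 and 0.899 CPM in GCR replicates 1 to 7, against 1.079, 2.05, 92.7, 30.8, 42.6, 74.5 and 0.710 CPM in mock replicates 1 to 7. The mock values fell in 2 clusters, and the 4 high ones were the mock libraries with over 1000 CPM Acta1. Over all groups, Rpl3l was 8.29 to 271 CPM in the 13 muscle-rich libraries (median 74.5) and 0.147 to 9.98 CPM in the other 24 (median 1.23). The 2 highest of those 24 were gamma replicates 4 and 3 (9.98 and 5.43 CPM), which had 24514 and 17519 CPM of Nppa, an atrial heart muscle gene. All 10 skeletal muscle genes of the marker list fell in GCR against mock, with 59.0 to 179 CPM in sum in GCR and 46.4 to 51404 CPM in mock. No GCR library was muscle-rich. Without the muscle-rich libraries the Rpl3l value was 0.026 (edgeR adjusted p = 0.99).

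**Figure D5:**
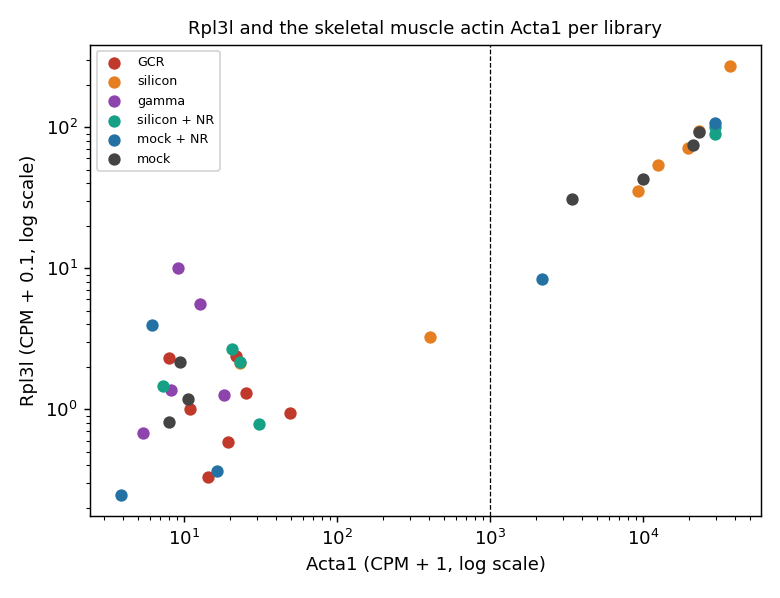
Rpl3l (vertical axis, CPM + 0.1) against Acta1 (horizontal axis, CPM + 1), both on log scales, in the 37 libraries, coloured by group. The 13 libraries right of the dashed line at 1000 CPM Acta1 hold 8.29 to 271 CPM of Rpl3l, and all 7 GCR libraries lie to its left.

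The other paralog pairs behaved differently from each other. Rps4l, a paralog of the X-linked Rps4x, had a value of -0.49 in GCR against mock (SE 0.20, edgeR adjusted p = 0.0786), while Rps4x rose by 0.75 (SE 0.21, edgeR adjusted p = 0.0191). Rps4l stood at 2.18% to 17.9% of the Rps4x level in GCR (median 4.43%) and 9.89% to 17.1% in mock (median 11.5%). Rpl22l1, which lies outside the rule, rose by 0.94 with its partner Rpl22, and its level was 46.6% to 59.8% of Rpl22 in GCR and 30.4% to 61.5% in mock. Rpl39l, made mainly in testis, stayed under 1 CPM in every library. Rps27l, excluded by the rule, had 170 to 349 CPM in GCR and 154 to 214 CPM in mock, while Rps27 itself had at most 1.37 CPM.

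GCR was also set against the other radiation groups. In GCR against silicon, 38 members rose and 3 fell of 78, where 35.3% of all tested genes passed (14.1% rose and 21.2% fell). The median was 0.56 over members and -0.08 over all genes. Rps21 rose by 2.04 (SE 0.39) and Rplp1 by 1.74 (SE 0.35). Rpl3l fell by 5.91 (SE 1.53), Rpl15 by 0.53 (SE 0.17, edgeR adjusted p = 0.0157) and Rpl4 by 0.46 (SE 0.16, edgeR adjusted p = 0.0270). Rpl4 had 224 to 417 CPM in GCR (median 360) and 369 to 774 CPM in silicon (median 496). In GCR against gamma, 37 members rose and none fell, where 5.7% of all tested genes passed (2.66% rose and 3.04% fell), with a median of 0.82 over members. Both comparisons share the GCR libraries with GCR against mock. Without the high-Rn45s libraries no member and no other gene passed in either. Without the muscle-rich libraries no member passed in either, while 7.37% of all genes passed against silicon and 0% against gamma. Without GCR replicate 6, 20 members passed against silicon, where 27.7% of all genes did. Against gamma, no member passed without GCR replicate 1, 2, 5 or 6 or without gamma replicate 3 or 4, fits in which 0 to 5 genes passed. Without gamma replicate 1, 20 members passed (3.73% of all genes), without GCR replicate 3, 56 (7.51%), and without GCR replicate 4, 62 (15.4%).

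Silicon and gamma on their own showed no called member. In silicon against mock none of 78 passed, as for all 16977 tested genes (0% called, 2185 genes and 3 members at an unadjusted p under 0.05). DESeq2 called 433 genes and no member. The median was 0.16 over members and 0.07 over all genes. The smallest p values were those of Rps6 (0.35, SE 0.14, edgeR adjusted p = 0.249), Rpl3 (0.36, SE 0.16), Rplp0 (0.42, SE 0.20) and Rps7 (0.42, SE 0.22). Here long members had the higher values, with a Spearman correlation with coding length of 0.70 over 73 members and a median of 0.39 for the 4 over 900 bases. Silicon replicate 3 had 47 of 74 members above every mock library, with Rpl3 at 545 CPM and Rpl4 at 774 CPM, each the highest of the 37 libraries. That library also had the highest B cell and T cell marker sums (1786 and 782 CPM, against 29.1 to 216 and 20.2 to 61.7 CPM in mock). Leaving out the 3 libraries over 100 CPM Ccl19, an alternative added with the data in view, gave a silicon median of 0.07.

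In gamma against mock none of 78 members passed, where 0.0295% of all genes did (5 genes, with 1701 genes and 1 member at an unadjusted p under 0.05). DESeq2 called 265 genes and no member. The median was -0.12, and 62 of 78 members were negative. Rpl3l had the smallest p (-3.30, SE 1.53, edgeR adjusted p = 0.460), followed by Rpl4 at -0.28 (SE 0.18) and Rpl28 at -0.44 (SE 0.32). Gamma replicate 3 had 54 of 74 members below every mock library, and the other 4 gamma lungs had 2 to 6. Without the 4 high-Rn45s libraries (GCR replicates 2, 5 and 6 and mock replicate 4) the median was 0.05.

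NR was tested with and without silicon. In mock + NR against mock, silicon + NR against mock + NR, silicon + NR against silicon and the difference of the silicon effects, no member passed and 0% of all genes passed in each. At an unadjusted p under 0.05 there were 2875, 367, 2171 and 1689 genes and 0, 0, 1 and 0 members in that order, and DESeq2 called 597, 2, 364 and 330 genes and no member. The member medians were -0.12, 0.04, -0.26 and -0.14. In silicon + NR against silicon 77 of 78 members were negative, among them Rpl19 (-0.30, SE 0.15, edgeR adjusted p = 0.394). The summed level was 12542 to 18805 CPM in silicon + NR (median 13871) and 14000 to 25979 CPM in silicon (median 17146), so the groups overlapped. None of the silicon + NR libraries exceeded 100 CPM Ccl19, and 2 of the 7 silicon libraries did. For the difference of the silicon effects, Rps6 had the smallest p (-0.37, SE 0.21, edgeR adjusted p = 0.628).

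In females against males no member passed (0.0589% of all genes did, 10 genes, with 534 genes and 2 members at an unadjusted p under 0.05). DESeq2 called 12 genes and no member. The median was -0.25 and 76 of 78 members were negative, with the smallest p for Rpl19 (-0.23, SE 0.09, edgeR adjusted p = 1.00). The summed level was 12340 to 40654 CPM in the 15 labelled females (median 14810) and 11825 to 30444 CPM in the 22 labelled males (median 15940). Gamma replicate 5 carries a female label, but Xist stood at 3.73 CPM and Ddx3y, a gene of the Y chromosome, at 87.6 CPM, which goes against that label.

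Genes that work with the family were counted in GCR against mock from fixed lists. In that comparison 8.03% of all tested genes rose and 8.52% fell. Of 7 listed family genes outside the rule 5 rose, Gnb2l1 (Rack1, a scaffold on the small subunit) by 1.22 (SE 0.29), Fau (source of Rps30) by 1.22 (SE 0.26), Rpl22l1, Rps27l and Rpl36al. Rps3a1, a core small subunit gene whose symbol falls outside both the rule and that list, rose by 0.77 (SE 0.18, edgeR adjusted p = 0.00902), with 340 to 555 CPM in GCR and 264 to 414 CPM in mock. Of the 5 tested ribosomal protein pseudogenes 4 rose (median 1.02), and reads of near-identical copies cannot be told apart in these counts. Of 17 other translation genes with TOP mRNAs 5 rose, Hnrnpa1 (1.63), Pabpc1 (0.95), Eef1b2 (0.86), Eif3f (0.69) and Nap1l1 (0.46), and the list's median was 0.21. Hnrnpa1 had a low mean log2 CPM of 2.51, against 6.67 (Eif3f) to 7.60 (Pabpc1) in the others that rose. Of 25 ribosome biogenesis genes Polr1c, of RNA polymerases I and III, rose by 0.75, and Bop1, Dkc1, Nop2, Nop56 and Rrp9 fell by 0.42 to 0.83, with a median of -0.26. Of 77 mitochondrial ribosomal protein genes 4 rose and 7 fell (median -0.21). Of 75 tested oxidative phosphorylation subunits none rose and 6 fell (median -0.30). These falls, 7 of 77 and 6 of 75, were near the 8.52% of all genes that fell. The 4 rises of 77 lay below the 8.03% of all genes that rose. Mitochondrial ribosomal proteins summed to 2363 to 3595 CPM in GCR and 2751 to 4568 CPM in mock. All 5 squamous epithelium markers also fell, with 3.27 to 93.6 CPM in sum in GCR and 3.18 to 1984 CPM in mock, and of 6 lung epithelium markers 2 rose, with 85365 to 313980 CPM in GCR and 61473 to 178862 CPM in mock. The part of these tissues in the members' values was not tested. Lymphocyte markers gave no call in GCR against mock, with T cell sums of 12.0 to 59.4 CPM in GCR and 20.2 to 61.7 CPM in mock.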

How the data were processed

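Per the labels' protocols, Trizol-extracted lung RNA was made into cDNA with the SMART-seq v4 kit and into libraries with Nextera XT, a chemistry without strand marks. The submitters' processing notes name mm10 and, with no roles, the aligner STAR 2.5.2 and the counter HTSeq 0.13.5. The authors deposited raw counts of reads, 1 row a gene symbol. Amplified cDNA without molecular identifiers means counts are not independent molecules.

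CPM was computed here from the deposited counts and library totals. Counts of all genes were tested with edgeR 4.0.16 in R 4.3.3 (TMM, filterByExpr leaving 16977 genes, quasi-likelihood test, Benjamini-Hochberg adjustment, called at 0.05), with the 6 groups and sex over all 37 libraries. The SE of a log2 fold change is its size divided by the square root of F. All 98 library pairs within groups differed beyond sampling noise. The test was checked on simulated counts, drawn independently for each gene with the same spread in every gene and group. That check does not cover the wider spread of the GCR lungs. Alternatives were DESeq2 1.42.0, RLE size factors, no filter, no sex term, only the groups compared, Rn45s left out, and leaving out libraries. Coordinates and coding lengths came from GENCODE M21 (GRCm38), with 1 transcript a gene.

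The members and lists were chosen with earlier results of these data known. Named members are the 10 largest rises and falls called in a comparison, otherwise the 4 of smallest p, and a fixed list by role. Mice of a group are taken as separate animals by their tags, and replicate numbers only name them. Other members named (such as Rpl41, Rps29, Rpl37a, Rpl10a and Rpl6) were chosen after their values were seen. A few genes are not reported here by name.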

Additional observations from a re-analysis of the deposited data

Results flagged for a closer look

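In 72 groups of values (12 measures in 6 groups), 14 had 1 library far from the others by Dixon's test, which flags about 1 group in 20 by chance. Mock + NR replicate 4, which had over 100 CPM Ccl19, stood above the other mock + NR lungs in 6 measures. Its summed level was 20070 CPM (others 12220 to 13580), with Rplp1 at 448 CPM (262 to 313), Rplp2 at 304 CPM (182 to 212), Rpsa at 472 CPM (232 to 286), Rps14 at 561 CPM (361 to 408) and Rps21 at 206 CPM (114 to 131). GCR replicate 6, the library with the smallest total count, stood above the other GCR lungs in Rplp1 at 2284 CPM (283 to 1110) and Rpsa at 1392 CPM (311 to 723). Silicon replicate 3, also rich in Ccl19, had 729 CPM of Rpsa (others 316 to 493.2). Gamma replicate 3, with 17519 CPM of Nppa, stood below the other gamma lungs in Rpsa at 272 CPM (325 to 345) and Rps14 at 343 CPM (488 to 546). Silicon + NR replicate 2 had the lowest Rpl3 of its group at 205 CPM (261 to 294). Rpl3l stood apart in the muscle-rich silicon replicate 4 at 271 CPM (2.02 to 93.2) and mock + NR replicate 2 at 108 CPM (0.147 to 8.29). The part of other tissues in these values was not tested.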

How the results depend on the processing

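No paired analysis was possible because the labels number no mice across groups, and the numbers used here follow the accessions. DESeq2, RLE size factors, no filter on low counts, no sex term and Rn45s left out were run as alternatives. Leaving out the libraries over 100 CPM Ccl19 was added with the data in view. In these fits the members called stayed within 1.5 times of the reported count, at 36 to 50 in GCR against mock. Each covered all 10 comparisons, except that females against males was not run without the sex term. Fitting the compared groups alone called 4 members in GCR against mock (5.78% of all genes), 19 against silicon (26.5%) and 0 against gamma (0%), so the members' shares were near or below those of all genes. Without the high-Rn45s libraries, without the muscle-rich ones, without either kind, and without the high-Rn45s libraries and GCR replicate 1 (also added later), 0 members were called in each of these comparisons. In GCR against silicon 1263 genes passed without the muscle-rich libraries and 926 without either kind, and in the other fits no gene passed. Without the high-Rn45s libraries 2 members had over 1.5 times the mock share and 1 had a share lower by that factor. Leaving out single libraries gave 24 to 58 members called in GCR against mock, 20 to 48 against silicon and 0 to 62 against gamma, while all genes called ran from 501 to 4087 in GCR against mock. The other 7 comparisons called 0 members under every alternative run.

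Rpl3l in GCR against mock turned to 0.026 without the muscle-rich libraries and 0.47 without either kind. Rpsa in GCR against silicon turned to -0.022 without the high-Rn45s libraries and -0.13 without either kind. Without the high-Rn45s libraries and GCR replicate 1, Rps19 turned to -0.018 in GCR against mock. Against silicon, the same fit gave Rps28 -0.058, Rps15 -0.15, Rps10 -0.13, Rpl37a -0.073, Rps26 -0.27, Rpl39 -0.29, Rplp2 -0.061, Rpsa -0.40, Rps14 -0.18, Rps27a -0.20, Rpl13a -0.21, Rpl22 -0.18 and Rps4x -0.26. Against gamma it gave Rps21 -0.0038, Rpl39 -0.0057, Rps28 -0.017, Rps15a -0.011, Rps14 -0.076 and Rps4x -0.0054. The cause was not tested. The all-gene median in GCR against mock stayed between -0.08 and 0.0022 under the scalings and library choices compared. Members under 10 CPM rest on few counts, and no difference in them was detectable at this depth.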
